A study of Mus musculus with 35 samples.

Results

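The proteasome subunits are described here in splenic type 1 conventional dendritic cells (cDC1) of mice that lack the transcription factor MYCL or carry a deletion labelled for MXD1. Members were the genes whose only platform symbol begins with Psma, Psmb, Psmc, Psmd or Psme and a number, leaving out the immunoproteasome genes Psmb8, Psmb9 and Psmb10 and the pseudogenes. That rule gave 42 of 19938 genes with a single symbol. They comprised 8 alpha-ring and 8 beta-ring genes of the core particle, 6 ATPases and 14 non-ATPase genes of the regulatory particle, and 4 activators. The other 2 members, Psmc3ip and Psme3ip1, are named after a subunit but are not subunits, so they were kept out of the class counts. Psmd5, Psmd9 and Psmd10, counted among the non-ATPase genes, are assembly chaperones of the regulatory particle. Each gene is represented by 1 probe cluster, the one with the highest mean over the 35 arrays.

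The proteasome is a barrel of stacked alpha and beta rings that cuts proteins inside its chamber. The alpha rings form the gate, and the beta rings carry the cutting sites of Psmb5 (chymotrypsin-like), Psmb6 (caspase-like) and Psmb7 (trypsin-like). A regulatory cap unfolds ubiquitin-tagged proteins with its ATPase ring and feeds them into the barrel, while the activators Psme1, Psme2, Psme3 and Psme4 open the gate in place of the cap. cDC1 are known for presenting peptides of proteins taken up from other cells on MHC class I, and the proteasome makes many such peptides. MYCL is a MYC-family factor that pairs with MAX on DNA, and MXD1 competes for the same partner.

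The study set cDC1 of mice labelled as Mycl or Mxd1 knockouts against control cDC1, at rest or after poly IC, a double-stranded RNA mimic that induces interferon. Cells were purified from spleen by flow cytometry and profiled on Affymetrix arrays. In the first set, 4 steady-state MyclGFP/GFP samples (Mycl KO) were compared with 5 MyclGFP/+ samples (HET), which carry the GFP allele once. In the second set, 5 steady-state MyclGFP/GFP samples were compared with 5 Mycl+/+ samples (WT). In the third set, 5 MyclGFP/GFP and 5 Mycl+/+ samples came from mice injected with 100 µg poly IC 5 h earlier. In the Mxd1 set, 3 Mxd1-/- and 3 Mxd1+/+ samples came from mice given poly IC for 18 h. The labels give no age or sex and call the samples biological replicates without saying whether each is another mouse, so the p-values measure only the spread between these samples. The knockouts are not described as restricted to a cell type, so other cells of the host may lack the gene too.

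Values are log2 levels, and a difference is the knockout mean minus the control mean within a set. The median level per array was 6.50 to 6.57 for set 1; set 2 had 5.55 to 5.60, set 3 had 5.47 to 5.53, and arrays of the Mxd1 set had 5.95 to 6.01. For that reason no level is compared across sets. The array scale is relative: a change of total RNA per cell cannot be seen on it, and fewer cells of a type cannot be told apart from less RNA per cell. All 10 cDC1 markers were above the low-value filter in every array. Their mean level was wholly higher in KO in set 1, at 11.62 to 11.79 in KO and 11.39 to 11.62 in HET libraries, with all 10 genes above 0 in difference and none past the test. It was wholly higher in the Mxd1 set too, at 10.97 to 11.04 in the libraries labelled Mxd1 KO and 10.56 to 10.92 in WT libraries, with 8 of 10 genes above 0 and none past the test. In that set the 6 cDC2 markers averaged 5.66 to 5.73 in the libraries labelled Mxd1 KO and 5.84 to 5.88 in WT, and the 6 T and NK cell markers 5.03 to 5.11 and 5.21 to 5.32 in that order. Of these, Clec4a4, Cd209a, Cd3d, Cd3g, Klrd1 and Ncr1 were not above the filter in every array. In set 3 the mean cDC1 marker levels overlapped, at 10.148 to 10.341 in KO and 10.226 to 10.999 in WT libraries. There 9 of the 10 genes lay below 0 in difference and none passed the test. All 6 T and NK cell markers lay above 0 in set 3, with overlapping mean levels and none past the test. Of those 6, Cd3d, Cd3g and Ncr1 were not above the filter in every array. What part these marker levels have in the results was not tested.

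Mycl itself averaged 6.96 ± 0.16 in KO and 9.84 ± 0.11 in HET of set 1 (SD), and 5.65 ± 0.14 in KO and 9.67 ± 0.11 in WT of set 2. In set 3, KO library 3 had a Mycl level of 8.87, while the other KO libraries lay at 5.52 to 6.14 and the WT libraries at 9.03 to 9.81. WT libraries 1 and 4 of set 3 had mean levels of 7.19 and 8.36 over 17 interferon-stimulated genes, against 10.3 to 10.6 in the other WT libraries and 10.4 to 10.8 in all 5 KO libraries. Neutrophil markers averaged 5.87 to 7.56 in KO and 5.66 to 7.01 in WT libraries of set 3, and their part in the results was not tested. For the set 3 differences discussed most, values without WT libraries 1 and 4, and without KO library 3 as well, are given too; that choice was made after seeing the data. In the Mxd1 set, Mxd1 averaged 10.51 ± 0.11 in the libraries labelled Mxd1 KO and 10.82 ± 0.20 in WT, a difference of -0.31 with an adjusted p of 0.260, and library levels overlapped. The difference has the labelled direction, but these levels do not show the loss that the label names. Where the probes sit relative to the deletion was not tested.

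In the cDC1 of all 8 groups, 41 of the 42 members were at or above the low-value filter in all 35 arrays. The exception was Psma8, a testis form of an alpha-ring subunit, which reached the filter in 16 arrays and was not tested in set 3 or the Mxd1 set. Psmb11, the thymus form of a catalytic beta subunit, had group means of 5.66 to 6.51. The level of Psmb5 averaged 11.46 ± 0.12 in KO and 11.66 ± 0.09 in HET of set 1, and 10.85 ± 0.10 in KO and 10.89 ± 0.03 in WT of set 2. After poly IC it averaged 10.78 ± 0.16 in KO and 10.90 ± 0.27 in WT of set 3, and 11.55 ± 0.07 in the libraries labelled Mxd1 KO and 11.45 ± 0.10 in WT of that set. Psme2, an interferon-inducible activator, averaged 12.06 ± 0.13 in KO and 12.11 ± 0.13 in HET of set 1, and 11.17 ± 0.04 in KO and 11.16 ± 0.08 in WT of set 2. It averaged 12.19 ± 0.07 in KO and 12.07 ± 0.20 in WT of set 3, and 12.44 ± 0.09 in the libraries labelled Mxd1 KO and 12.54 ± 0.06 in WT of that set. Neither gene's KO mean lay more than 0.20 from its control mean in any set.

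The plot of differences for all members shows how small most of them were.

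**Figure D1:**
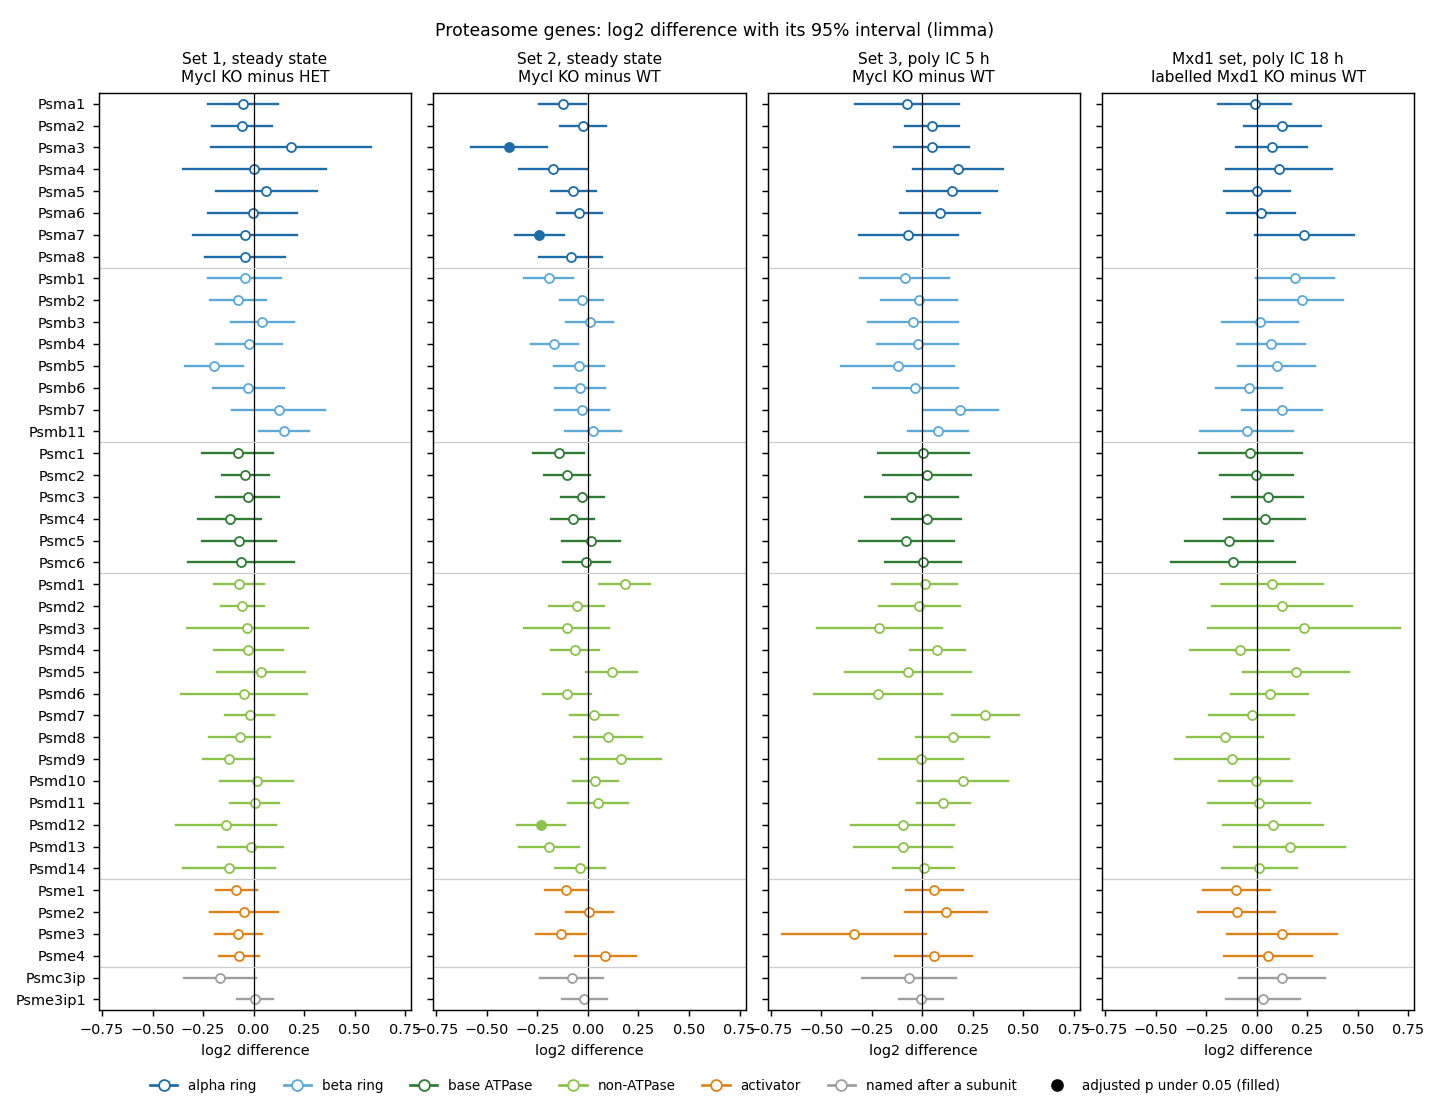
Log2 difference, knockout minus control, of the 42 members in sets 1, 2, 3 and the Mxd1 set (panels), with 95% intervals from limma; filled points have an adjusted p under 0.05. The 3 filled points, Psma3, Psma7 and Psmd12, all lie below 0 in set 2.

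The second set, which compares MYCL-deficient with wild-type cDC1 at rest, held the only members past the test. Psma3 and Psma7, both alpha-ring subunits, and Psmd12, a scaffold subunit of the lid of the regulatory particle, were lower in KO. Of all 14012 genes tested, 6.14% were called, 2.36% lower and 3.78% higher. The 3 of 42 members called are 7.14%, and all 3 are lower. Limma gave 12 of 42 members an unadjusted p under 0.05, 28.6%, where 21.2% of all genes had one. Differences lay below 0 for 30 of 42 members, 71.4%, with a median of -0.043. The 8 monocyte and macrophage markers also separated in this set: their mean level was 6.25 to 6.43 in KO and 6.47 to 6.59 in WT libraries. Of the 8, 2 were called lower and 1 higher, 5 differed below 0, and Adgre1 was not above the filter in every array. The mean levels of the other marker lists overlapped. Of 10 cDC1 markers 3 were called higher and 1 lower, and of 17 interferon-stimulated genes 4 higher. Among 5 plasmacytoid DC markers 2 were called higher and 1 lower. Of cDC2 and of B cell markers, 1 each was called higher and 1 lower. Of 6 T and NK cell markers 2 were called higher. What part these markers have in the results was not tested.

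Psma3 had levels of 11.10, 11.03, 10.56, 10.87 and 10.95 in KO libraries, against 11.39, 11.32, 11.37, 11.23 and 11.14 in WT libraries. All 5 KO values lay below the lowest WT value, and KO library 3 was the lowest. The difference was -0.39 ± 0.09 (SE, n = 5 each), a linear fold of 0.764 with an adjusted p of 0.0188. Its 3 probe clusters gave differences of -0.32, -0.36 and -0.39, each with an adjusted p of 0.0208 to 0.0257 when every cluster was fitted by itself.

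Psma7 had levels of 10.00, 9.92, 9.82, 10.02 and 9.93 in KO libraries, against 10.25, 10.22, 10.18, 10.14 and 10.10 in WT libraries. The groups did not overlap. The difference was -0.24 ± 0.06, a linear fold of 0.846 with an adjusted p of 0.0221. Psmd12 had levels of 8.0, 7.91, 7.87, 7.92 and 8.0 in KO libraries, against 8.22, 8.27, 8.16, 8.09 and 8.11 in WT libraries. Again no KO value reached the lowest WT value. The difference was -0.23 ± 0.06, a linear fold of 0.852 with an adjusted p of 0.0239.

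These calls rested on the choice of libraries and of the spread estimate. WT library 1 was the highest of the 10 arrays for 14 of the 40 subunits and chaperones, where it was the highest for 9.21% of all genes. KO library 3 was the lowest for 12 of the 40, where it was the lowest for 14.7%. Without WT library 1 the adjusted p became 0.0559 for Psma3, 0.0639 for Psma7 and 0.0657 for Psmd12. In a fit of all 8 groups together it became 0.0852, 0.225 and 0.253 in that order. The number of all genes called fell in both fits too, as given at the end. Over 19 alternatives the adjusted p ranged from 0.0063 to 0.0852 for Psma3, from 0.0105 to 0.225 for Psma7 and from 0.0120 to 0.253 for Psmd12. Psma3 passed the test in 17 of the 19, Psma7 in 15 and Psmd12 in 15. Over the same alternatives the differences ran from -0.44 to -0.30 for Psma3, -0.27 to -0.21 for Psma7 and -0.26 to -0.21 for Psmd12.

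The 250 bases before the annotated start of the 3 called genes are shown because their transcripts moved the same way, with matches to promoter motifs in capitals. Sequences are from the RefSeq promoter table on GRCm38.p6: Psma3 at chr12:70974373-70974622, plus strand; Psma7 at chr2:180042465-180042714, minus strand; Psmd12 at chr11:107479278-107479527, plus strand.
Psma3: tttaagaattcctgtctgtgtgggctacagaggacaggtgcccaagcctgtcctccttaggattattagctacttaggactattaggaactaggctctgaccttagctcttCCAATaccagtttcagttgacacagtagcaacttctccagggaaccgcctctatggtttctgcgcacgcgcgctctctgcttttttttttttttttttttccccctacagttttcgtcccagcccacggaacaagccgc
Psma7: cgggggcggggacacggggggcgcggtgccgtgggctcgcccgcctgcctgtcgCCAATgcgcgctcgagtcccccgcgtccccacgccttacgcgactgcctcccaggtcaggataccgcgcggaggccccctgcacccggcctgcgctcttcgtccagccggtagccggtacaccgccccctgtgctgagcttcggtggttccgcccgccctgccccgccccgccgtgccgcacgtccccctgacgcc
Psmd12: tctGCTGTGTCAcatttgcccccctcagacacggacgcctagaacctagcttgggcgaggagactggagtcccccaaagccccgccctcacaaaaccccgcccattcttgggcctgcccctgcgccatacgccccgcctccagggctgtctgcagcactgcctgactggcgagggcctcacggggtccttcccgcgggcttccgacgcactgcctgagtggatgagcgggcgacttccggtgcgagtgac
In Psma3 the capitals mark a CCAAT box, the motif of the factor NF-Y, at 139 to 135 bases before the start. In Psma7 they mark a CCAAT box at 196 to 192 bases before it. In Psmd12 they mark TGACNNNGC on the reverse strand, the core of the antioxidant response element, at 247 to 239 bases before the start. NFE2L1, known as a regulator of proteasome genes, binds elements of this kind. Of 32851 promoter windows 33.8% hold CCAAT and 10.2% hold TGACNNNGC, so these matches are common and set no called gene apart. No CACGTG, the E-box that MYC-family dimers with MAX bind, was in these 3 windows, which says nothing about binding elsewhere.

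The rest of the alpha ring lay on the same side. All 8 alpha-ring genes had differences below 0 in set 2, with a median of -0.11, where all genes tested had a median of 0.0078 and 47.1% lay below 0. The count stayed at 8 under quantile normalization, centring, array weights and without each library in turn. Among the 8 is the testis form Psma8, whose mean level was low at 5.01 in KO and 5.10 in WT. The filter level in these arrays was 4.77 to 4.85. Besides Psma3 and Psma7 the differences ran from -0.17 for Psma4 to -0.026 for Psma2, and none passed the test. Psma4 had levels of 9.50, 9.42, 9.01, 9.26 and 9.23 in KO libraries, against 9.52, 9.49, 9.42, 9.45 and 9.39 in WT libraries. Those ranges overlapped, and the adjusted p was 0.219.

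In the beta ring 6 of 8 genes had differences below 0 and none passed the test. Psmb3, counted above 0 at 0.0089, gave -0.028 in its other probe cluster. Psmb1, a structural beta subunit, had levels of 10.05, 9.99, 10.05, 9.93 and 10.05 in KO libraries, against 10.25, 10.34, 10.13, 10.13 and 10.18 in WT libraries. The groups did not overlap, and the difference of -0.19 ± 0.06 had an adjusted p of 0.0578. Psmb4, another structural beta subunit, differed by -0.17 ± 0.06 without overlap, with an adjusted p of 0.0910. The catalytic subunits showed little difference: -0.043 ± 0.058 for Psmb5 (95% interval -0.17 to 0.081), -0.040 ± 0.059 for Psmb6 (-0.17 to 0.086) and -0.031 ± 0.063 for Psmb7 (-0.17 to 0.10). Each of these intervals holds 0 and reaches no further than 0.17 below it.

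In the regulatory particle the picture was mixed. Of the 6 base ATPases, which unfold the substrate, 5 had differences below 0, from -0.14 for Psmc1 to 0.014 for Psmc5, with none past the test. The other probe cluster of Psmc1 gave only -0.032. Psmc4 did not overlap between groups, although its difference was only -0.076 ± 0.049. Among the 14 non-ATPase genes 7 lay below 0 and 7 above it. Those above it included the assembly chaperones Psmd5, Psmd9 and Psmd10. Psmd13, a lid subunit, differed by -0.19 ± 0.07 with an adjusted p of 0.118. Psmd1, a large scaffold subunit of the base, was on the other side: its levels were 8.82, 8.87, 8.91, 8.89 and 8.91 in KO libraries, against 8.62, 8.67, 8.61, 8.72 and 8.88 in WT libraries. Only WT library 5 reached the KO range, and the difference of 0.18 ± 0.06 had an adjusted p of 0.0859. Without WT library 5 it was 0.23 with an adjusted p of 0.0243, and over 19 alternatives the adjusted p ranged from 0.0243 to 0.191. The base assembly chaperones Psmd9 and Psmd5 differed by 0.16 ± 0.09 and 0.12 ± 0.06, with adjusted p of 0.342 and 0.283.

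Among the activators, Psme1, partner of Psme2 in the interferon-inducible cap, had levels of 10.29 to 10.40 in KO libraries, against 10.43 to 10.50 in WT libraries. Those ranges did not overlap, and the difference of -0.11 ± 0.05 had an adjusted p of 0.226. Psme2 differed by 0.0070 ± 0.0554 (95% interval -0.11 to 0.13). Psme3, the nuclear activator, differed by -0.13 ± 0.06 (adjusted p of 0.204), and Psme4, an activator linked to histone breakdown, by 0.086 ± 0.071 (adjusted p of 0.551). In all, 7 members lay wholly lower in KO (Psma3, Psma7, Psmb1, Psmb4, Psmc4, Psmd12 and Psme1), which is 16.7% of 42 where 3% of all genes did so, and 0 lay wholly higher, where 3.74% of all genes did.

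**Figure D2:**
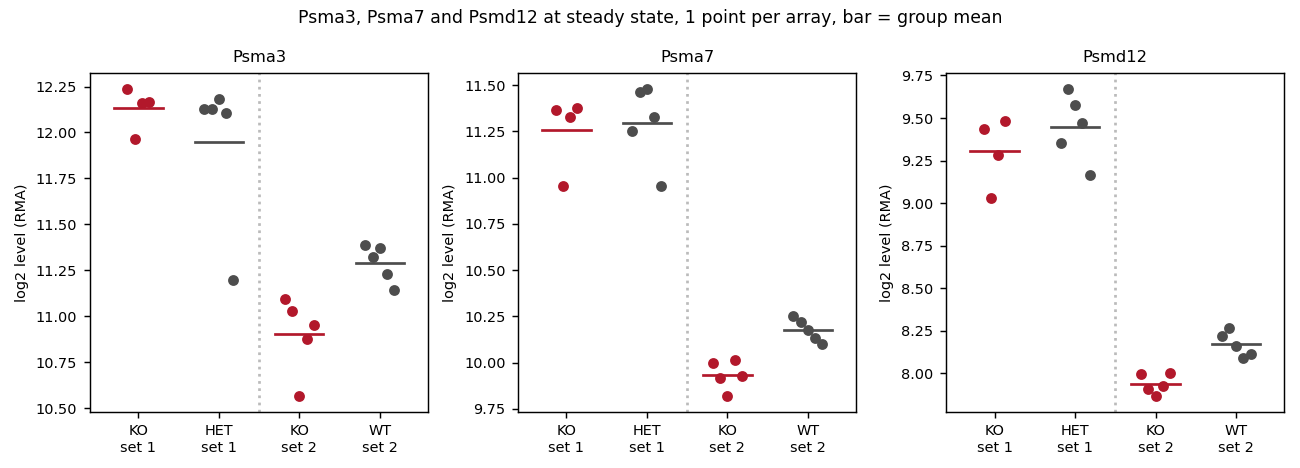
Log2 level of Psma3, Psma7 and Psmd12 in every array of sets 1 and 2, KO left of its control, with group means. In set 2 all 5 KO points lie below the lowest WT point for each gene; in set 1 KO and HET points overlap for all 3.

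The first set compares MYCL-deficient cDC1 with heterozygous ones at rest. No member passed the test among 14023 genes, of which 0.0214% were called; limma gave 2 members an unadjusted p under 0.05, 4.76% of them, where 14.2% of all genes had one. Differences lay below 0 for 32 of 42 members, with a median of -0.043, where 48.7% of all genes lay below 0 with a median of 0.0029. Without KO library 2, 19 of 42 lay below 0 and the median was 0.0073. With arrays centred on their median 24 lay below 0, and without HET library 2 it was 22. KO library 2 was the lowest of the 9 arrays for 20 of 40 subunits and chaperones, where it was the lowest for 14.1% of all genes.

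The 3 genes called in set 2 did not separate here. Psma3 had levels of 12.24, 11.96, 12.16 and 12.17 in KO libraries, against 12.13, 12.13, 12.18, 12.11 and 11.19 in HET libraries. HET library 5 alone lay far below the rest. The difference was 0.19 ± 0.18 (95% interval -0.21 to 0.58), and -0.0030 without HET library 5. Psma7 differed by -0.041 ± 0.117 (-0.30 to 0.22) and Psmd12 by -0.14 ± 0.11 (-0.39 to 0.11), both with overlapping libraries.

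The lowest difference in set 1 was that of Psmb5, the chymotrypsin-like subunit. Its levels were 11.48, 11.33, 11.42 and 11.61 in KO libraries, against 11.51, 11.71, 11.75, 11.64 and 11.68 in HET libraries. Only KO library 4 reached into the HET range. The difference of -0.20 ± 0.07 (95% interval -0.34 to -0.054) had an adjusted p of 0.243, which ranged from 0.108 to 0.820 over 18 alternatives. The other catalytic subunits gave -0.026 ± 0.080 for Psmb6 and 0.12 ± 0.10 for Psmb7, and the thymus form Psmb11 gave 0.15 ± 0.06 (adjusted p of 0.279). All 6 base ATPases lay below 0, from -0.12 for Psmc4 to -0.030 for Psmc3, but 5 did so after centring and 4 without KO library 2. All 4 activators lay below 0 too, at -0.085 ± 0.046 for Psme1, -0.048 ± 0.077 for Psme2, -0.075 ± 0.053 for Psme3 and -0.073 ± 0.045 for Psme4, but 3 without KO library 2. Their adjusted p lay between 0.427 and 0.781. Psmc3ip, a meiotic recombination protein, differed by -0.17 ± 0.08 (adjusted p of 0.375). No member had groups free of overlap, where 2.72% of all genes lay wholly lower in KO and 1.74% wholly higher.

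Set 1 and set 2 share no arrays. Differences were below 0 in both for 25 of 42 members, 59.5%, where 24.1% of 13509 genes were. They were above 0 in both for 5 members (Psmb11, Psmb3, Psmd10, Psmd11 and Psmd5). Below 0 lay 76.2% of members in set 1 and 71.4% in set 2, so the joint count largely restates these 2 shares. The share in set 1 fell without KO library 2 and after centring, as given above. In a fit of both sets with set as a block, 4.43% of 14639 genes were called and no member; limma gave 10 members an unadjusted p under 0.05, 23.8% of them, where 18.6% of all genes had one. The median over members was -0.049, and 31 of 42 lay below 0, where all genes had a median of 0.0072 and 46% below 0. All 8 alpha-ring genes, Psma8 with its low level among them, and all 6 base ATPases lay below 0. Without KO library 2 of set 1 it was 7 and 3. Psmd12 had the lowest difference, -0.19 ± 0.06 with an adjusted p of 0.0811, which ranged from 0.0177 to 0.288 over 28 alternatives. Without HET library 5 it was -0.22 with an adjusted p of 0.0177, and Psma7 was then -0.19 with an adjusted p of 0.0389, against -0.15 ± 0.07 and 0.225 with all libraries. Over its 28 alternatives the adjusted p of Psma7 ranged from 0.0389 to 0.485. Psmb1 followed at -0.12 ± 0.05 (adjusted p of 0.180). The highest were Psmb11 at 0.084 ± 0.045, Psmd5 at 0.079 ± 0.057 and Psmd1 at 0.062 ± 0.048.

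The difference between the 2 steady-state effects was tested as well. It called 1.01% of 14639 genes and no member, with 3 members, 7.14%, at an unadjusted p under 0.05, where 16.2% of all genes had one. The value was below 0 for 19 of 42 members, where 52% of all genes were. Psma3 had the highest value, 0.57 ± 0.20 (95% interval 0.16 to 0.99, adjusted p of 0.155); without HET library 5 it was 0.39. Psmd9 and Psmd1 had the lowest, -0.29 ± 0.12 and -0.25 ± 0.08 (adjusted p of 0.236 and 0.124). Set 1 uses HET controls and set 2 WT controls, so control genotype and set cannot be told apart in this test.

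The heat map of all members by array shows which libraries were high or low as a whole.

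**Figure D3:**
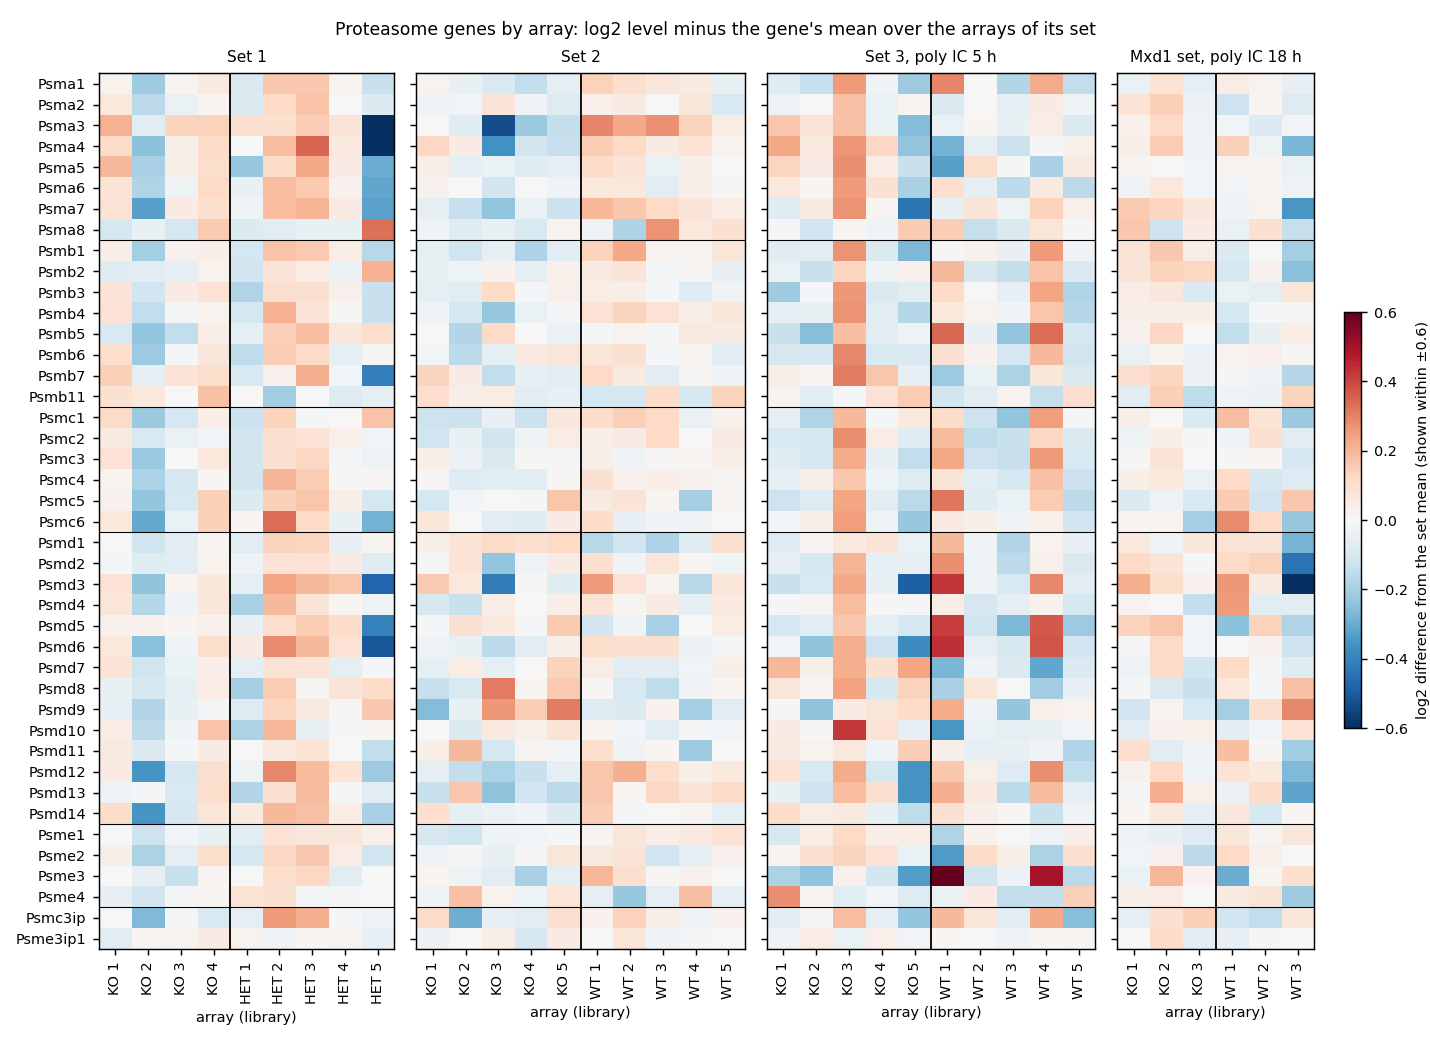
Log2 level of each member minus its mean over the arrays of the set, for all 35 arrays, KO columns left of control columns in each set. KO library 2 of set 1 is low over many members (lowest of 9 arrays for 20 of 40), and KO library 3 of set 3 is high over many (highest of 10 arrays for 18 of 39).

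Subunits moved together from library to library within groups. Over the 9 arrays of set 1 the mean pairwise correlation of deviations from group means was 0.559 among 40 subunits and chaperones, where it was 0.0083 over all genes tested. It was 0.468 within the core particle, 0.642 within the regulatory particle and 0.557 between them. Psmd12 followed the rest most closely (0.978) and Psma8 least (-0.348). Over the 10 arrays of set 2 the mean was only 0.100, with a median SD per subunit of 0.069, where that of all genes was 0.10. In set 3 it was 0.326 and in the Mxd1 set 0.236, over 10 and 6 arrays. These points share library and array, so the values describe the arrays and carry no test. HET libraries 2 and 3 of set 1 were the highest of 9 arrays for 19 and 15 of the 40, where they were the highest for 21.1% and 7.89% of all genes.

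After poly IC for 5 h, the third set, no member passed the test. Of 14033 genes 0% were called, and limma gave 1992 of them, 14.2%, an unadjusted p under 0.05. Of 41 members tested, 2 (Psmd7 and Psmb7) had one, 4.88%. Differences lay below 0 for 20 of 41, with a median of 0.0037, where 50.3% of all genes lay below 0 with a median of -0.0012. Without WT libraries 1 and 4 it was 8 of 41 with a median of 0.055, and without KO library 3 as well it was 18 with a median of 0.014.

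Psmd7, a lid subunit that pairs with the deubiquitinase Psmd14, had levels of 8.85, 8.69, 8.87, 8.75 and 8.89 in KO libraries, against 8.38, 8.63, 8.57, 8.34 and 8.57 in WT libraries. It was the only member whose groups did not overlap, higher in KO, where 1.91% of all genes lay wholly higher and 1.65% wholly lower. The difference was 0.31 ± 0.08 (95% interval 0.14 to 0.48, n = 5 each) with an adjusted p of 0.229. WT libraries 1 and 4 were the lowest: without them the difference was 0.22, and without KO library 3 too it was 0.20. In a fit of all 8 groups together its adjusted p was 0.0021, and over 21 alternatives it ranged from 0.0021 to 0.472. Such a fit uses 1 residual spread per gene for all sets. The median SD per subunit was 0.14 in set 3, against 0.069 to 0.12 in the other sets.

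Psme3 had the lowest difference, -0.34 ± 0.16 (95% interval -0.70 to 0.017, adjusted p of 0.361). Its levels were 8.73, 8.68, 8.95, 8.81 and 8.59 in KO libraries, against 9.59, 8.81, 8.89, 9.42 and 8.76 in WT libraries. The high WT values were those of libraries 1 and 4, the ones with low interferon-stimulated genes. In a fit of all 8 groups together its adjusted p was 0.0361, and over 21 alternatives it ranged from 0.0361 to 0.887. Without these 2 WT libraries the difference was -0.067, and without KO library 3 as well -0.12. The lid subunits Psmd6 and Psmd3 followed the same libraries: -0.22 ± 0.14 and -0.21 ± 0.14 with all arrays, and -0.019 and -0.045 without WT libraries 1 and 4. The assembly chaperone Psmd10 differed by 0.20 ± 0.10 with all arrays, 0.14 without WT libraries 1 and 4, and 0.057 without KO library 3 as well.

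The interferon-inducible activator Psme2 ran the other way in the same libraries. Its levels were 12.15, 12.22, 12.26, 12.22 and 12.09 in KO libraries, against 11.79, 12.24, 12.16, 11.94 and 12.23 in WT libraries. WT libraries 1 and 4 were the lowest of the set. The difference of 0.12 ± 0.09 (adjusted p of 0.534) was -0.023 without them. Psmb10, an immunoproteasome gene outside the members, had levels of 11.36 to 11.49 in KO libraries, against 10.59 to 11.41 in WT libraries, with WT libraries 1 and 4 again the lowest. What part the low interferon response of these libraries has in the differences beyond these values was not tested. Psme1 differed by 0.059 ± 0.065 and Psme4 by 0.056 ± 0.087.

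**Figure D4:**
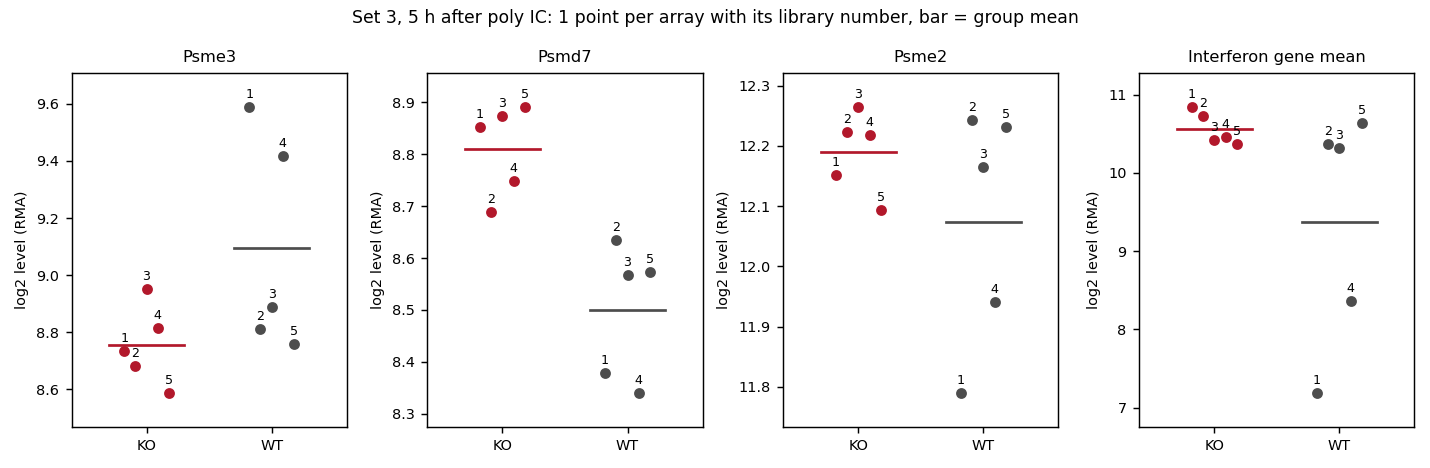
Log2 level of Psme3, Psmd7 and Psme2 and the mean of 17 interferon-stimulated genes in every array of set 3, KO left of WT, with library numbers. WT libraries 1 and 4 are the lowest for the interferon-stimulated genes and Psme2 and the highest for Psme3; Psmd7 is higher in all 5 KO libraries than in any WT library.

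Of the catalytic subunits in set 3, Psmb5 differed by -0.12 ± 0.13 (95% interval -0.40 to 0.16) and Psmb6 by -0.035 ± 0.095 (-0.24 to 0.17). Psmb7 differed by 0.19 ± 0.08 with an adjusted p of 0.352; it was 0.20 without WT libraries 1 and 4, and 0.15 without KO library 3 as well. Psmb5 had levels of 10.71, 10.59, 11.02, 10.77 and 10.81 in KO libraries, against 11.19, 10.80, 10.61, 11.18 and 10.74 in WT libraries, with the high values in WT libraries 1 and 4 and KO library 3. Its difference was 0.065 without WT libraries 1 and 4. The genes called in set 2 differed by 0.046 ± 0.085 (Psma3), -0.069 ± 0.112 (Psma7) and -0.098 ± 0.116 (Psmd12) after poly IC. Without WT libraries 1 and 4 these values were 0.063, -0.061 and 0.016, and without KO library 3 as well 0.024, -0.14 and -0.052, in the same order.

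The change of the KO effect between set 3 and set 2 was tested too; it mixes poly IC with the set, and the 2 cannot be told apart. Of 14665 genes 0.0205% were called and no member, with 4 members, 9.52%, at an unadjusted p under 0.05, where 13% of all genes had one. The value was below 0 for 11 of 42 members, where 52.6% of all genes were. Set 3 minus set 2 was 0.43 ± 0.13 for Psma3 (95% interval 0.16 to 0.71, adjusted p of 0.208), 0.35 ± 0.13 for Psma4 and 0.28 ± 0.09 for Psmd7. The lowest values were -0.21 ± 0.18 for Psme3, -0.19 ± 0.16 for Psmd5 and -0.17 ± 0.14 for Psmd9. The value of Psme3 was 0.067 without WT libraries 1 and 4 of set 3, and that of Psmd5 was 0.051.

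In the Mxd1 set, after 18 h of poly IC, no member passed the test among 14080 genes, of which 0.071% were called. Limma gave 1 of 41 members tested, Psmb2, an unadjusted p under 0.05, 2.44% of them, where 15.9% of all genes had one. Differences lay above 0 for 27 of 41 members, with a median of 0.039, where 50.6% of all genes lay below 0 with a median of -0.0023; with arrays centred on their median 23 of 41 lay below 0 and the median was -0.018. WT library 3 was the lowest of the 6 arrays for 19 of 39 subunits and chaperones, where it was the lowest for 21.4% of all genes. Without it the median was 0.0046.

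Psma7, lower in KO in set 2, had levels of 11.26, 11.23 and 11.17 in the libraries labelled Mxd1 KO, against 11.07, 11.12 and 10.75 in WT libraries. Those groups did not overlap, with WT library 3 far below the rest. The difference was 0.24 ± 0.11 (95% interval -0.010 to 0.48, n = 3 each) with an adjusted p of 0.331. Psmb2, a structural beta subunit, had levels of 11.49, 11.54 and 11.53 in the libraries labelled Mxd1 KO, against 11.30, 11.43 and 11.16 in WT libraries. It did not overlap either, at 0.22 ± 0.09 with an adjusted p of 0.287. The lid subunit Psmd3 differed by 0.24 ± 0.21, and by -0.037 without WT library 3. In all, 4 members lay wholly higher (Psma7, Psmb1, Psmb2 and Psmb4) and 2 wholly lower (Psmd8 and Psme1), where 11.8% and 10.8% of all genes did so; the members' shares were 9.76% and 4.88%.

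The lowest differences in the Mxd1 set were -0.16 ± 0.08 for the lid subunit Psmd8, -0.14 ± 0.10 for the ATPase Psmc5 and -0.12 ± 0.12 for Psmd9. The catalytic subunits gave 0.098 ± 0.084 (Psmb5), -0.039 ± 0.072 (Psmb6) and 0.13 ± 0.09 (Psmb7). The activators gave -0.10 ± 0.07 (Psme1), -0.099 ± 0.083 (Psme2), 0.13 ± 0.12 (Psme3) and 0.056 ± 0.095 (Psme4). With 3 libraries a group, the 95% intervals of these reach 0.20 to 0.41 from 0 on their wider side.

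Promoter windows were searched for the same motifs in all members with an entry, which was 35 of 42. The search covered both strands of the 250 bases before the start. These 35 members had 39 windows, and a member was counted if any of its windows held the motif. The percentages are of windows, so the 2 measures are unlike. The E-box CACGTG was present in 4 members (Psma4, Psmd9, Psme3 and Psme3ip1), where 6.02% of 32851 promoter windows hold it. TGACNNNGC was present in 5 (Psmb5, Psmb6, Psmc6, Psmd12 and Psmd9; 10.2% of windows), CCAAT in 15 (33.8%), and the interferon-stimulated response element (GAAA, any 2 bases, GAAA) in 3 (Psmb3, Psmd4 and Psmd9; 2.98%). Of these, 14 members held none of the 4 motifs. The E-box windows of the subunit genes Psma4 and Psme3 and the assembly chaperone Psmd9 are shown because MYC-family and MXD proteins both bind that motif with MAX. The windows are Psma4 at chr9:54950609-54950858, Psmd9 at chr5:123227940-123228189 and Psme3 at chr11:101315963-101316212, all on the plus strand of GRCm38.p6.
Psma4: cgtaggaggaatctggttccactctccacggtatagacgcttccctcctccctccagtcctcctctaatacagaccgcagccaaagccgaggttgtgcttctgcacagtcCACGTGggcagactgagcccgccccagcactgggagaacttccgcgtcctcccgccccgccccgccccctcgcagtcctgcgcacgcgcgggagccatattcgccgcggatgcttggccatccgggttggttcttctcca
Psmd9: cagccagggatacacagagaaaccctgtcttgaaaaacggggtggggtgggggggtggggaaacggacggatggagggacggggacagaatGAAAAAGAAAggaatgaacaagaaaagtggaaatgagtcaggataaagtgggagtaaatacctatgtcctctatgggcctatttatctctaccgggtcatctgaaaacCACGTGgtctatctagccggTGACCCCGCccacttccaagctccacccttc
Psme3: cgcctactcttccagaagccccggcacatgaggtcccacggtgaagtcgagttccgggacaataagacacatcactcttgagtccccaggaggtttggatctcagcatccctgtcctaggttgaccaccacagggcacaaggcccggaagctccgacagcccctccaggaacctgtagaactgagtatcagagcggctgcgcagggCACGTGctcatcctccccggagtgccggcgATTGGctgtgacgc
Capitals mark the E-box at 140 to 135 bases before the start in Psma4, at 51 to 46 in Psmd9 and at 44 to 39 in Psme3. In Psmd9 they also mark the interferon-stimulated response element at 159 to 150 and TGACNNNGC at 31 to 23, and in Psme3 a CCAAT box on the reverse strand at 14 to 10. No motif overlapped another in the printed windows. In set 2 the subunit genes differed by -0.17 (Psma4) and -0.13 (Psme3), and the assembly chaperone Psmd9 by 0.16, with none of the 3 past the test. A match is a match of letters and no evidence of binding.

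Around the subunits, 25 further genes of proteasome assembly, regulation and substrate delivery were found from a list of 38 names. In set 2, 3 of them passed the test, 12% of 25 where 6.14% of all genes did. Of the 3, 2 were higher and 1 lower, where 3.78% and 2.36% of all genes were. Usp14, a deubiquitinase that trims ubiquitin chains at the regulatory particle, had levels of 6.70, 6.81, 6.51, 6.75 and 6.80 in KO libraries, against 7.04, 6.82, 6.94, 7.07 and 7.02 in WT libraries. All KO values lay below the lowest WT value, if narrowly, and the difference was -0.26 ± 0.07 with an adjusted p of 0.0342. Nploc4, a cofactor of the unfoldase VCP, differed by 0.28 ± 0.06 (adjusted p of 0.0172), and Ubqln2, a shuttle for ubiquitin-tagged proteins, by 0.25 ± 0.06 (adjusted p of 0.0359). Nploc4 passed the test in 19 of 19 alternatives, Usp14 in 10 and Ubqln2 in 8.

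In set 1 none of the 25 passed, and 3 lay wholly lower in KO (Usp14, Psmf1 and Ubqln1), where 2.72% of all genes did. Usp14 levels were 7.79, 7.45, 7.56 and 7.83 in KO libraries, against 7.84, 8.16, 7.93, 7.88 and 7.95 in HET libraries. The difference was -0.30 ± 0.09 (adjusted p of 0.223). In the fit of both steady-state sets with set as a block Usp14 differed by -0.28 ± 0.06 with an adjusted p of 0.0053, and it passed the test in 28 of 28 alternatives. It lay wholly lower in KO in set 3 as well, at -0.37 ± 0.12 (adjusted p of 0.288), and the difference was -0.21 without WT libraries 1 and 4 and -0.23 without KO library 3 as well. In the Mxd1 set the groups did not overlap in the other direction: Usp14 levels were 7.71, 7.72 and 7.77 in the libraries labelled Mxd1 KO, against 7.69, 7.68 and 7.41 in WT libraries. That difference was 0.14 ± 0.10 (adjusted p of 0.509), with a narrow gap between the groups and WT library 3 far below the rest. In the Mxd1 set 11.8% of all genes lay wholly higher. Psmf1, an inhibitor of the core particle, differed by -0.15 ± 0.05 in set 1 (adjusted p of 0.223) and -0.096 ± 0.062 in set 2. The core assembly chaperones Psmg1 and Psmg2 differed by -0.45 ± 0.21 and -0.42 ± 0.21 in set 3 (adjusted p of 0.361 and 0.369). Without WT libraries 1 and 4 they differed by -0.080 and -0.099, and without KO library 3 as well by -0.15 and -0.16. Zfand2a, which binds the proteasome under arsenite stress, differed by 0.52 ± 0.12 in set 3 (adjusted p of 0.220), by 0.37 without WT libraries 1 and 4 and by 0.38 without KO library 3 as well. None of the 25 passed in set 3 or the Mxd1 set, and none of the 3 immunoproteasome genes passed in any set.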

How the data were processed

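The 35 samples were profiled on Affymetrix arrays from small amounts of RNA, amplified with the WT Pico kit per the labels' protocols. The deposited values are log2 levels that the authors made with Affymetrix Expression Console and RMA, per the submitters' processing notes, with no version stated in the sources used here. External RNA was spiked in by cell number, and no step that uses it is recorded there. Samples were grouped by their labels. Each set was analysed within itself, as array medians differ between sets.

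Of 35556 probe clusters, 21789 had 1 symbol, 1621 several and 12146 were not listed in the platform table. A gene was represented by its cluster with the highest mean. Genes that reached the array's 30th percentile in a number of arrays equal to the smallest group or more were fitted with limma 3.58.1 in R 4.3.3 (lmFit and eBayes, two-sided). P-values were adjusted by Benjamini and Hochberg's method over every gene in the fit, and an adjusted p under 0.05 was called. The fits were tested on simulated data. Named genes were the members called, the 3 with the highest and the 3 with the lowest difference per comparison, the catalytic subunits, the activators, the members at the ends of the level range, and pathway genes that passed the test; further members, such as those without overlap, were named after their values were seen. The members and lists were chosen with earlier results of these data known. Alternatives were another filter, quantile normalization, centring, array weights, a variance trend, a fit of all groups, a replicate block and leaving out each library. The number of arrays limits the precision.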

Additional observations from a re-analysis of the deposited data

Results flagged for a closer look

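In 13 of 180 groups of values, 1 library lay apart from the rest by Dixon's test at the 95% level. Chance marks about 1 in 20 such groups. In KO library 2 of set 1, Psma7 was at 10.95 where the nearest KO library was at 11.33, and Psmb1 was at 10.84 where the nearest was at 11.07. Psmd5 was at 7.83 in KO library 3 of set 1, while the other KO libraries all had the same value, 7.84. That flag rests on tied values. Pairs of arrays shared a mean of 1987 equal values within set 1, against 13.6 to 30.8 within the other sets. What part such ties have in the results was not tested. In HET library 5 of set 1, Psma3 was at 11.19 where the nearest HET library was at 12.11, and Mycl was at 9.65 where the nearest was at 9.85. In WT library 4 of set 2, Psmc5 was at 8.93, the nearest being 9.14.

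In KO library 3 of set 3, the library with a Mycl level of 8.87 (nearest 6.14), Psmb6 was at 11.74 (nearest 11.36), Psmc5 at 9.65 (9.35) and Psmd5 at 6.67 (6.45). Psme4 was at 8.62 in KO library 1 of set 3 (nearest 8.35). Among the WT libraries of set 3, Psmb1 was at 10.42 in library 4 (nearest 10.19) and Psmd10 at 8.27 in library 1 (nearest 8.56).

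The difference of Mycl itself was less negative in set 1 than in set 2, by 1.15 on the log2 scale (adjusted p of 1.02e-05, limma); set 1 has HET controls and set 2 WT controls.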

How the results depend on the processing

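Over all alternatives, 1403 gene values kept their direction and side of the threshold, 30 lost a call, 9 gained one and 33 changed sign; the cause was not tested. In set 2, 3 members were called; in a fit of all 8 groups it was 0 and with array weights 5, and leaving out each library gave 0 to 4. All genes called in set 2 numbered 861, against 358 in the fit of all 8 groups, 408 or 505 when WT library 1 or 2 was dropped, and 453 when KO library 5 was. In set 3 the fit of all 8 groups called 2 members, Psmd7 and Psme3. Over both steady-state sets quantile normalization called 1, and leaving out each library 0 to 2; for set 1 minus set 2 it was 0 to 1.
The sign changes were as follows. In set 1, Psmb6 was 0.023 with array weights and 0.013 after centring, and -0.067 to 0.042 leaving out each library; Psma3 was -0.0030 with the replicate block and -0.0030 to 0.24 leaving out each library, and Psme2 was -0.092 to 0.0054. In set 2, Psme2 was -0.020 after centring and -0.022 to 0.027 leaving out each library, and Psmb7 -0.068 to 0.0023. In set 3, Psme1 was -0.046 after quantile normalization and Psmb6 0.0031 after centring; leaving out each library gave -0.11 to 0.0093 for Psmb6 and -0.0075 to 0.098 for Psme4. Without WT libraries 1 and 4, chosen after seeing the data, Psmb5 was 0.065, Psmb6 0.049 and Psme2 -0.023; without KO library 3 as well, Psmb5 was 0.00476, Psme1 -0.014 and Psme2 -0.041. In the Mxd1 set, Psmb6 was 0.010 and Psme4 -0.0085 after quantile normalization, Psme4 -0.000498 after centring, and leaving out each library gave -0.036 to 0.11 for Psme4 and -0.037 to 0.42 for Psmd3. For set 3 minus set 2, Psme3 was 0.049 with array weights, 0.067 and 0.017 in the 2 fits without the libraries that stand apart, and Psmd5 0.051 and 0.00195 there.
Same-numbered arrays of a set did not deviate together (correlations from -0.40 to 0.35). Paired samples need not deviate together, so this cannot show whether the numbers pair the arrays. With the replicate block set 2 still called 3 members and the other sets 0. The number of arrays, 3 to 5 a group, limits the precision of every difference.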
